A study of Mus musculus with 2 samples.

Results

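The enzymes that make serine and pass its carbon to folate were examined at the mRNA level in leukemic stem cells (LSCs) from mice with BCR-ABL-driven chronic myeloid leukemia (CML). The genes were chosen by name from the known pathway, with earlier results of these data known. All 9 of them were found among the 23284 gene symbols listed for both libraries. They are Phgdh, Psat1 and Psph of serine synthesis, Shmt1 and Mthfd1 of the cytosolic folate pathway, and Shmt2, Mthfd2, Mthfd1l and Aldh1l2 of the mitochondrial folate pathway. The design compared 1 library of WT LSCs with 1 library of STAP-1 KO LSCs, both on the C57BL/6J background, to see which genes depend on the adapter STAP-1. In both genotypes, BCR-ABL and green fluorescent protein (GFP) were introduced by retrovirus into Lin- Sca-1+ c-Kit+ (LSK) bone marrow cells of Ly5.2 donors, which were then transplanted into lethally irradiated Ly5.1 recipients together with unmodified Ly5.1 marrow. Mice were 8 to 14 weeks old, and GFP+ CD45.2+ LSK cells were sorted on day 11 after the first transplantation. The KO is germline, so that every donor-derived cell carries it. How many mice stand behind each library is not given in the sources used here. As each genotype has 1 library, the spread between replicates is unknown and differences are described without p-values.

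Serine is made from the glycolytic intermediate 3-phosphoglycerate by an oxidation (Phgdh), a transamination (Psat1) and a dephosphorylation (Psph). Serine hydroxymethyltransferases then convert serine to glycine and load the released carbon onto tetrahydrofolate, in the cytosol through Shmt1 and in mitochondria through Shmt2. Mthfd1 in the cytosol and Mthfd2 with Mthfd1l in mitochondria interconvert the loaded folates, which feed purine and thymidylate synthesis, and mitochondrial formate links the compartments. Proliferating cells, leukemic cells among them, are known for high activity of this pathway, and the transcription factors ATF4 and MYC are known activators of several of its genes.

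Values are FPKM, fragments scaled to the length of the exons and to the mapped total of the library, as deposited. FPKM is divided by transcript length, so that levels of different genes can be set side by side. The libraries are called WT and KO below, ratios are KO over WT, and log2 ratios were taken after adding 0.1 FPKM to both values, which pulls the ratio of low genes towards 0. The deposited values do not state the number of reads, but the low values fall on steps. The steps fitted best at effective depths of 7500000 reads for WT and 10470000 for KO. At these, 47.3% of 1246 low values in WT and 48.7% of 1555 in KO came within 0.01 of a whole number of reads. By chance 2% would do so at a setting fixed beforehand. The depths were chosen to make this share largest, so it is no independent check of them, and the depths are estimates. Estimated reads and the 95% intervals rest on these depths and cover counting error only, not the variation between mice, sorts or library preparations. The targeted gene Stap1 stood at 61.95 FPKM in WT and at 0.309 FPKM in KO.

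The libraries differed in more than the targeted gene, and in bulk RNA fewer cells of a type and less RNA per cell cannot be told apart. Of the sorting markers, all 4 (Kit, Ly6a, Cd34 and Ptprc) were lower in KO and 3 at least 2-fold, with a sum of 1141 FPKM in WT and 368 FPKM in KO. Kit alone went from 468 to 30.1 FPKM. The cells were sorted by surface protein, so these mRNA values cannot show how well the sorted cell type was marked in either library. All 10 mast cell and basophil markers were lower in KO, where they summed to 5276 FPKM against 51462 FPKM in WT, and none of them was at 0. All 6 primary granule markers were higher, with a sum of 571 FPKM in WT and 4666 FPKM in KO. All 5 late neutrophil markers listed were lower (393 and 157 FPKM in sum), whereas the 6 monocyte and macrophage markers were split, 3 higher and 3 lower, and summed to 141 FPKM in either library. The erythroid markers summed to 1746 FPKM in WT and 885 FPKM in KO, with 4 of 5 lower, and the megakaryocyte markers to 194 and 117 FPKM, with 2 of 5 lower. The 5 B lymphoid markers, 3 of them at 0 in both libraries, summed to 0.476 FPKM in WT and 1.02 FPKM in KO. The 5 T lymphoid markers summed to 3.89 and 7.41 FPKM. The part of these populations in the ratios described next was not tested.

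All 9 enzyme genes had a higher value in KO, by ratios from 1.03 to 3.40. The 3 genes of serine synthesis and Shmt1 were at least 2-fold higher, 4 of 9 genes, and none was 2-fold lower. Of the 12507 genes with at least 0.1 FPKM in both libraries, 12.3% were at least 2-fold higher and 22.9% at least 2-fold lower. The 8 enzyme genes with a mean of 1 FPKM or more had a median log2 ratio of 1.06, where the 10974 genes with such a mean had a median of -0.04 and quartiles of -0.88 and 0.59. The gene just above the cut-off was Psph, with a ratio of 2.28, and the gene just below it was Shmt2, with a ratio of 1.91.

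**Figure D1:**
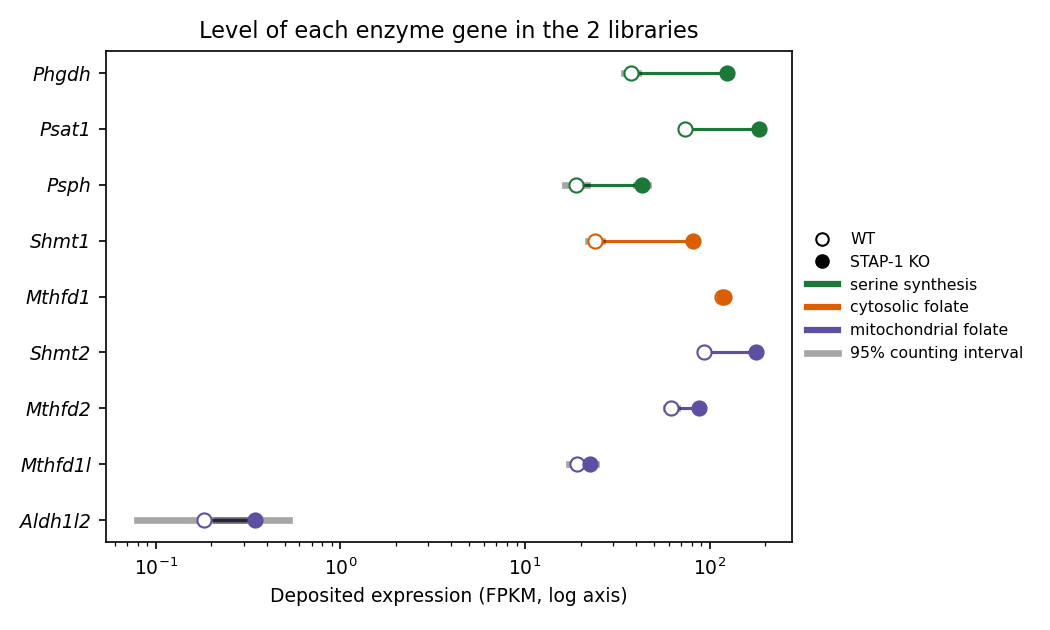
Level of each enzyme gene in FPKM (log axis) in WT (open circles) and KO (filled circles), coloured by arm, with 95% counting intervals in grey. Each filled circle lies to the right of its open circle, by the most for Shmt1 (23.9 and 81.3 FPKM) and by the least for Mthfd1 (116 and 120 FPKM), and Aldh1l2 lies far below the others.

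In serine synthesis, the 3 genes were higher in KO in the order in which their ratios are given here. Phgdh, which encodes 3-phosphoglycerate dehydrogenase, the entry enzyme of the pathway, had 37.6 FPKM in WT and 124 FPKM in KO. This is a ratio of 3.31 (95% counting interval 2.99 to 3.66) on about 475 and 2194 estimated reads, and 2.98% of all genes with a mean of 1 FPKM or more had a larger log2 ratio. Psat1, phosphoserine aminotransferase, had 73.6 and 185 FPKM, a ratio of 2.51 (2.36 to 2.67) on about 1329 and 4665 estimated reads. Psph, phosphoserine phosphatase, which frees serine in the last step, had 18.9 and 43.0 FPKM, a ratio of 2.28 (1.95 to 2.66) on about 216 and 686 estimated reads. For Phgdh and Psat1 the counting interval lay wholly above 2-fold, whereas that of Psph reached below it. Within each library Psat1 was the highest of the 3 and Psph the lowest. The value of Phgdh relative to Psat1 was 0.511 in WT and 0.672 in KO, a 1.32-fold larger difference for Phgdh than for Psat1 (1.17 to 1.48). Psat1 relative to Psph was 3.9 and 4.30, a difference within counting error (1.10-fold, 0.936 to 1.30).

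The Phgdh and Psph values carry limits of annotation. Phgdh (chr3:98313170-98339990 of GRCm38, minus strand) has 19 other annotated genes, 17 of them processed pseudogenes, whose transcripts match its own at 90% identity or more over at least 200 bases. The closest, Gm7901, matched at 98.7% over 1597 of the 1893 bases. Only 1 of the 19, Gm8096, is listed in the deposited tables, at 0 in both libraries, and reads that fit several copies can be divided among them. Mthfd1, Mthfd1l, Mthfd2 and Shmt1 have no such copy, Psat1 has Gm12611 (90.7% over 1059 bases) and Shmt2 has Gm15544 (90.1% over 232 bases). Psph (chr5:129765558-129787449, minus strand) shares 452 bases at its 5' end with Cct6a, a chaperonin subunit gene on the opposite strand. Cct6a had 354 FPKM in WT and 769 FPKM in KO, and without strand information the reads of the shared bases cannot be told apart. Shmt1 overlaps 184 bases of Smcr8 at its 3' end, which had 5.79 and 1.94 FPKM, and thus differed in the other direction. Psat1 lies at chr19:15904678-15947337 on the minus strand.

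In the cytosol the 2 folate enzymes differed in unlike degree. Shmt1 (chr11:60788104-60811718, minus strand), the cytosolic serine hydroxymethyltransferase, had 23.9 FPKM in WT and 81.3 FPKM in KO. Its ratio of 3.40 (3.08 to 3.76) on about 475 and 2257 estimated reads was the largest of the 9, with an interval that overlapped that of Phgdh, and 2.80% of the genes with a mean of 1 FPKM or more had a larger log2 ratio. Mthfd1 (chr12:76255298-76319803, plus strand), the trifunctional cytosolic enzyme that carries dehydrogenase, cyclohydrolase and formyltetrahydrofolate synthetase activities, had 116 and 120 FPKM. Its ratio of 1.03 (0.978 to 1.08) was the smallest, on about 2647 and 3801 estimated reads, and its interval included 1. Shmt1 was at 0.205 of the Mthfd1 level in WT and at 0.680 of it in KO. The change of this proportion, 3.31-fold (2.96 to 3.70), was far larger than counting error.

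In mitochondria all 4 genes had ratios below 2. Shmt2 (chr10:127517123-127522444, minus strand), the mitochondrial serine hydroxymethyltransferase, had 93.2 FPKM in WT and 178 FPKM in KO, a ratio of 1.91 (1.8 to 2.03) on about 1453 and 3878 estimated reads, whose interval reached the cut-off. Mthfd2 (chr6:83305691-83325908, minus strand), the mitochondrial methylenetetrahydrofolate dehydrogenase and cyclohydrolase, had 62.0 and 87.2 FPKM, a ratio of 1.41 (1.29 to 1.53). Mthfd1l (chr10:3973118-4167081, plus strand), which releases formate in mitochondria, had 19.03 and 22.6 FPKM, a ratio of 1.19 (1.06 to 1.33). As deposited, Mthfd2 differed slightly more than Mthfd1l (1.18-fold, 1.03 to 1.36), an order that turned round after correction for transcript length and GC content. Aldh1l2 (chr10:83487450-83534140, minus strand), mitochondrial formyltetrahydrofolate dehydrogenase, had 0.183 and 0.345 FPKM, which correspond to about 8 and 21 reads. Its ratio of 1.88 has a counting interval from 0.800 to 4.91, so that a difference was not detectable at this depth. Its last 1056 bases also overlap D10Wsu102e on the opposite strand, which had 27.4 and 21.7 FPKM, and which of the genes the few reads came from was not tested.

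**Figure D2:**
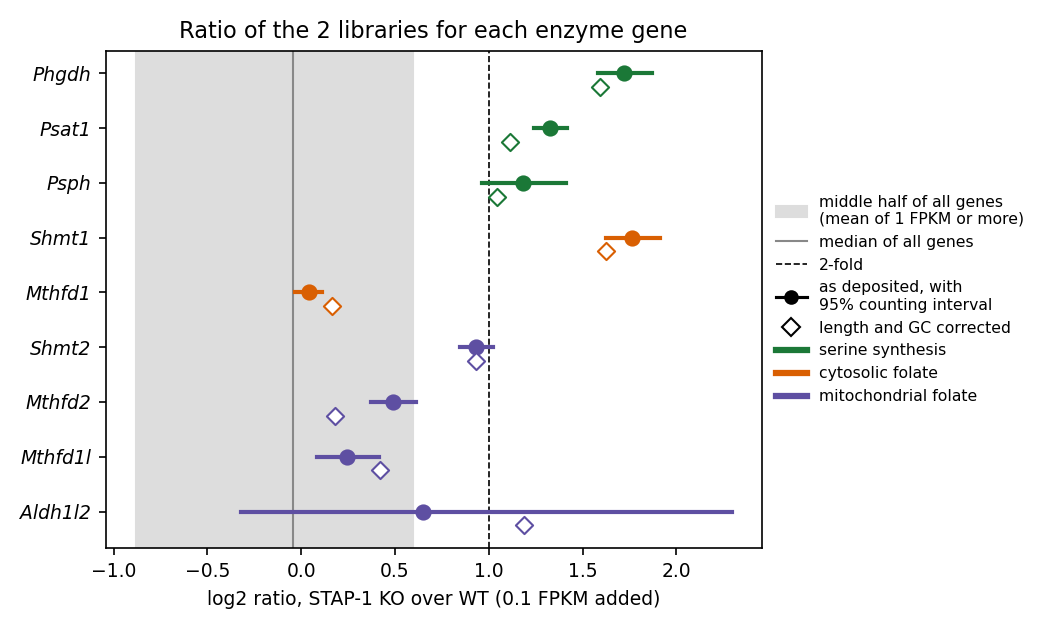
log2 ratio of KO over WT for each enzyme gene (0.1 FPKM added), as deposited (circles) with 95% counting intervals of the plain ratio (lines), and adjusted for the length and GC content of the transcript (diamonds). The grey band spans the quartiles of all genes (-0.88 to 0.59) and the dashed line marks 2-fold, which Phgdh, Psat1, Psph and Shmt1 pass in both forms.

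The balance of the isoenzymes differed between the libraries. Shmt2 was 3.9 times Shmt1 in WT (3.51 to 4.32) and 2.19 times Shmt1 in KO (2.08 to 2.30). The mitochondrial form was therefore the higher one in both, and the proportion in KO was 0.562 of that in WT (0.50 to 0.631). For the next step, Mthfd2 and Mthfd1l together were at 0.696 of Mthfd1 in WT and at 0.917 in KO, a change in the other direction (1.32-fold, 1.21 to 1.43). Corrected for transcript length and GC content, the log2 change was -0.69 for the first proportion and 0.073 for the second, so that the second did not keep its size. The order of the levels also differed. In the WT library it ran from Mthfd1 over Shmt2, Psat1, Mthfd2, Phgdh, Shmt1, Mthfd1l and Psph to Aldh1l2, and the counting intervals of Mthfd1l and Psph overlapped. In the STAP-1 KO library Psat1 and Shmt2 came first with overlapping intervals, followed by Phgdh and Mthfd1, and by Mthfd2 and Shmt1, each pair overlapping, and then by Psph, Mthfd1l and Aldh1l2.

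Summed over an arm, the serine synthesis genes had 130 FPKM in WT and 352 FPKM in KO, a ratio of 2.71 (2.58 to 2.85). The cytosolic folate genes had 140 and 201 FPKM, a ratio of 1.43 (1.37 to 1.5), which without Mthfd1 is the 3.40 of Shmt1. The mitochondrial folate genes had 174 and 288 FPKM, a ratio of 1.65 (1.58 to 1.73), and 1.36 without Shmt2. Serine synthesis made up 29.2% of the summed FPKM of the 9 genes in WT and 41.9% in KO. The share of the cytosolic arm was 31.5% and 23.9%, and that of the mitochondrial arm 39.2% and 34.2%.

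**Figure D3:**
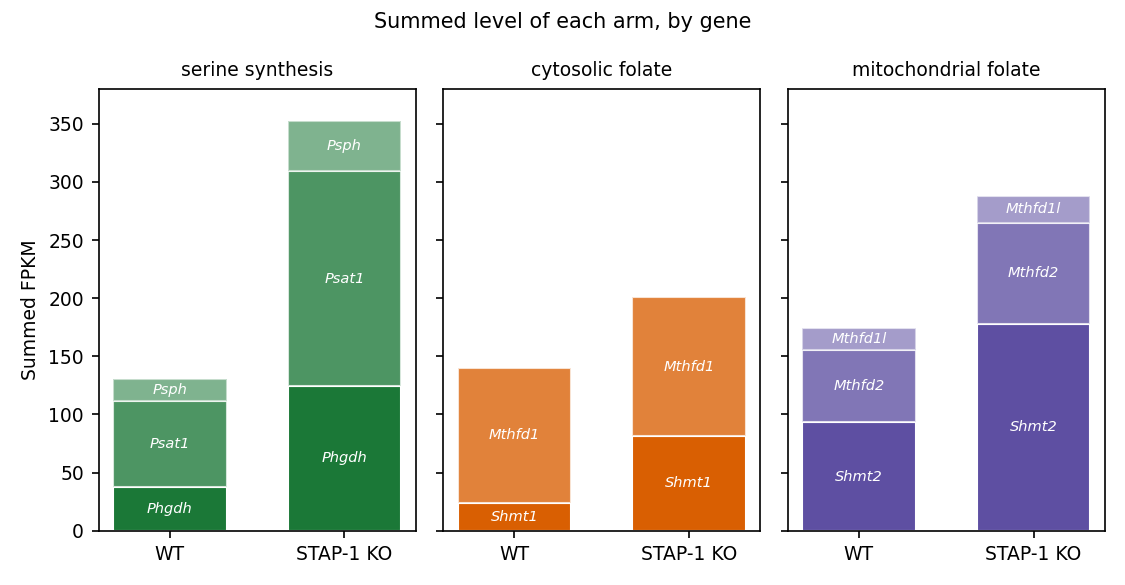
Summed FPKM of serine synthesis, cytosolic folate and mitochondrial folate genes in the WT and STAP-1 KO libraries, each bar divided by gene, with no error bars since there is 1 library per genotype. Serine synthesis goes from 130 to 352 FPKM with every gene taller in KO, whereas the Mthfd1 section of the cytosolic bars keeps nearly the same height. Aldh1l2 is too low to be seen.

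Transcript length bears on such ratios here. Over 10865 genes with an annotated length and a mean of 1 FPKM or more, transcript length and the log2 ratio were correlated with Spearman's rho of -0.37, a correlation across genes, which are not independent replicates. The longest transcripts of the 9 genes ran from 1893 to 6027 bases with a median of 2858, against 3218 for all these genes. After subtraction of the median of genes with like length and GC content, the log2 ratio of Phgdh went from 1.72 to 1.59, that of Psat1 from 1.33 to 1.11, that of Psph from 1.18 to 1.04 and that of Shmt1 from 1.76 to 1.63. Those of Shmt2 (0.93) and Mthfd1 (0.04 and 0.17) stayed or moved up slightly, that of Mthfd2 went from 0.49 to 0.18, and that of Mthfd1l from 0.25 to 0.42. The 4 genes past the cut-off stayed past it, and Aldh1l2, on its few reads, went from 0.65 to 1.19 and joined them.

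The stretches of 150 bases before the RefSeq transcription start (GRCm38.p6) are shown for the genes with the largest ratios and for Shmt2 beside its isoenzyme, since the data single these genes out by size. Letters in capitals are matches on either strand to the CCAAT box (CCAAT) or the GC box (GGGCGG). Psat1 has 2 starts in RefSeq. Of the Phgdh stretch, 21 bases lie in annotated exons. Those of Psph and Mthfd1 lie wholly in annotated exons and are not shown.
Phgdh (chr3:98339970-98340119, minus strand): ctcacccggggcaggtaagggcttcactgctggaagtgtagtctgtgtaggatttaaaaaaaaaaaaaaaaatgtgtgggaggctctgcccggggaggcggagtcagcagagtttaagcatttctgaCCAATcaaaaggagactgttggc
Psat1, upstream start (chr19:15925060-15925209, minus strand): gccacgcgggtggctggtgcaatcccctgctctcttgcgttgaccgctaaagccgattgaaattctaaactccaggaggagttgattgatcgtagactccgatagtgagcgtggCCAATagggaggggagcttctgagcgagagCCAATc
Psat1, downstream start (chr19:15924623-15924772, minus strand): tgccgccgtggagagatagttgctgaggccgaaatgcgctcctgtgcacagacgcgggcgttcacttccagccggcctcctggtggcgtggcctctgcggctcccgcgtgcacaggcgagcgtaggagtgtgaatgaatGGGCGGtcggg
Shmt1 (chr11:60811266-60811415, minus strand): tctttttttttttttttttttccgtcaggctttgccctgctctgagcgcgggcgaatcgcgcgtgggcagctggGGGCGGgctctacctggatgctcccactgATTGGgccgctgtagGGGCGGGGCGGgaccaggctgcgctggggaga
Shmt2 (chr10:127522445-127522594, minus strand): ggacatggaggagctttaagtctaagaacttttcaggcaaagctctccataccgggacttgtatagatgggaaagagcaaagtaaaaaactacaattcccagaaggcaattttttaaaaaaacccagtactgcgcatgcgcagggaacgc

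Windows from 250 bases before to 50 after a start were searched for 8 of the 9 genes, in 9 windows, and for comparison in 32851 windows of all genes. Both strands were searched for 5 motifs, which were chosen after the values were seen, and a match is only a description of the letters. The CCAAT box was found for 6 of the 8 genes, Phgdh, Psat1, Psph, Shmt1, Mthfd1 and Mthfd2, and in 37.4% of all windows. In Phgdh it begins 23 bases before the start, in Shmt1 47 bases and in Psat1 36 and 6 bases before the upstream start. The GC box was found for 5 genes, Psat1, Psph, Shmt1, Mthfd1 and Mthfd1l, and in 35.7% of windows, and the copies at 32 and 27 bases before the Shmt1 start overlap. Shmt2 held neither. The TATA box (TATAAA) was found for Phgdh only of the 8, 189 bases before the start, where it overlaps a further CCAAT box at 193 bases, and in 13.6% of windows. The E-box CACGTG and the core TGATGNAAN of the element that ATF4 binds with C/EBP factors were found in none of the 9 windows, and in 7.15% and 3.95% of all windows. Mthfd1, with a ratio near 1, thus shared the CCAAT and GC boxes with Shmt1. Aldh1l2 was not among the windows.

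The genes around this core were taken from lists written from general knowledge, with 54 genes in 7 lists, of which 45 had at least 0.1 FPKM in both libraries. Of these, 5 (11.1%) were at least 2-fold higher and 7 (15.6%) at least 2-fold lower in KO, against 12.3% and 22.9% of all genes. The 43 with a mean of 1 FPKM or more had a median log2 ratio of 0.0045, 22 of them above 0. After the length and GC correction 4 of the 45 (8.89%) were at least 2-fold higher and 8 (17.8%) at least 2-fold lower, against 10.7% and 17.6% of the 12360 genes with a length.

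**Figure D4:**
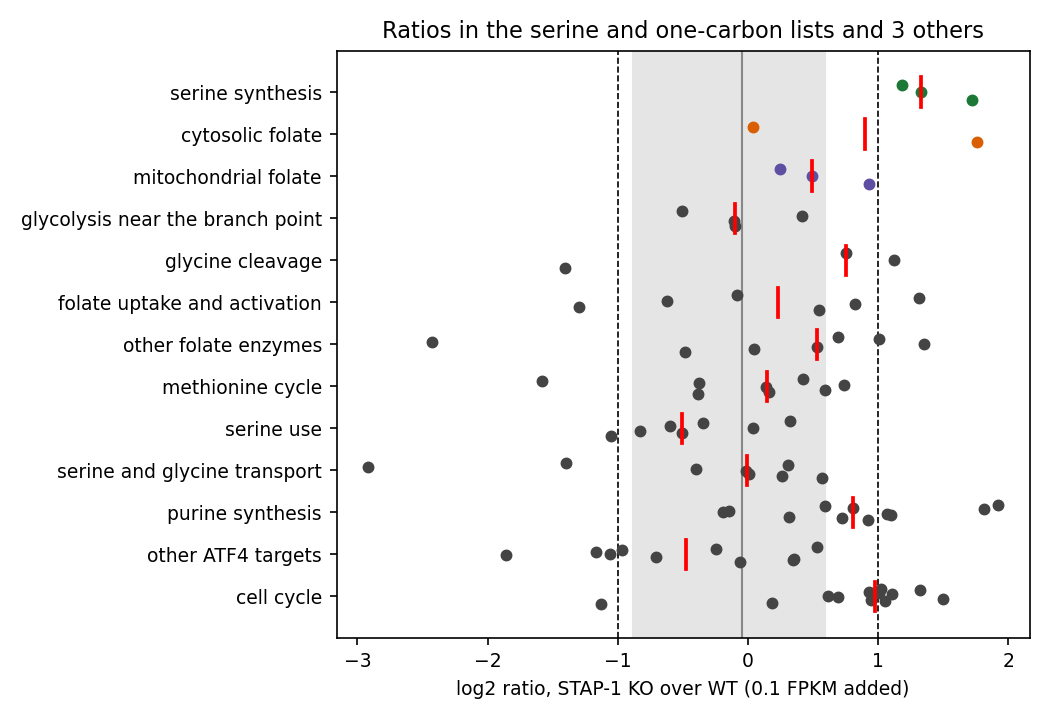
log2 ratio of KO over WT (0.1 FPKM added) of every listed gene with a mean of 1 FPKM or more, by list, with the median of each list in red, the quartiles of all genes in grey and 2-fold as dashed lines. The 3 serine synthesis genes lie right of the 2-fold line, while the lists for serine use (median -0.50) and for serine and glycine transport (median -0.0036) lie around or left of 0 as deposited. After the length and GC correction these medians were -0.31 and 0.34, so that the transport list turned to the right of 0.

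Upstream of serine synthesis, the glycolytic genes around 3-phosphoglycerate had, over 4 genes, a median log2 ratio of -0.10, and none of the 4 passed the cut-off. Gapdh, left out of this median for its low mean, passed it with 0.391 and 1.03 FPKM on about 3.55 and 13 estimated reads. All cells use this glycolytic enzyme, and by the search described for Phgdh it has 161 copies, whose part in the low level was not tested. In the transport list Slc6a9, a glycine transporter, had 25.6 FPKM in WT and 3.30 FPKM in KO, and Sfxn3, a mitochondrial serine transporter, had 28.3 and 10.7 FPKM. The other 6 genes of this list above 0.1 FPKM did not pass the cut-off, also after the length and GC correction.

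In the glycine cleavage system, which takes a carbon from glycine in mitochondria, Gcsh, its carrier protein, was 2-fold higher as deposited, with 50.4 and 110 FPKM. Its log2 ratio of 1.12 became 0.65 after the length and GC correction, below the cut-off, and the median of the list went from 0.76 to 0.20. The decarboxylase gene Gldc was lower, with 3.23 and 1.16 FPKM. Among the 8 genes of folate uptake and activation, the proton-coupled folate carrier gene Slc46a1 had 3.47 and 1.35 FPKM. Of the other folate enzymes, Tyms, thymidylate synthase, had 25.5 and 51.4 FPKM, just past the cut-off as deposited (log2 1.01) and just below it after the correction (0.96), and Mthfd2l, an isoenzyme of Mthfd2, had 1.96 and 5.16 FPKM. Aldh1l1, the cytosolic formyltetrahydrofolate dehydrogenase and counterpart of Aldh1l2, went the other way, with 13.9 FPKM in WT and 2.49 FPKM in KO. Its log2 ratio was -2.43 and stayed at -2.08 after the length and GC correction.

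The methionine cycle, which receives folate-bound carbon for methylation, lay at a median log2 ratio of 0.15 over 8 genes, and 1 gene passed the cut-off, Ahcyl2, a relative of adenosylhomocysteinase, with 13.7 and 4.50 FPKM. In the list for serine use, Cth, cystathionine gamma-lyase, had 2.34 and 1.08 FPKM, and the median was -0.50 over 7 genes. Cth acts on cystathionine and not on serine itself. The median of the serine synthesis genes was 1.33, and with 1 library per genotype these lists were not tested against each other.

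For comparison, purine synthesis, a main user of formyl-folate, lay at a median log2 ratio of 0.81 over 11 genes, with 4 at least 2-fold higher and none lower. These were Adssl1 (11.6 and 44.4 FPKM), Impdh2 (2.64 and 9.51 FPKM), Paics (132 and 281 FPKM) and Adsl (84.3 and 177 FPKM). After the length and GC correction Paics was below the cut-off (log2 0.80), Pfas (1.04) and Gmps (1.48) were past it, and the median was 0.99. The cell cycle genes had a median of 0.98 over 12 genes, with 6 at least 2-fold higher, among them Cdk1 (36.5 and 103 FPKM), Aurka (49.4 and 124 FPKM) and Mcm5 (97.4 and 209 FPKM), and with Mki67 lower (17.4 and 7.89 FPKM). These calls depended on the length and GC correction, after which only 2 of the 12, Cdk1 (log2 1.70) and Mcm5 (1.14), were 2-fold higher and the median was 0.75. The share of all genes that were 2-fold higher was 12.3% as deposited and 10.7% after the correction, so that the corrected cell cycle count lay near it. Aurka then had 0.95, and the log2 ratio of Mki67, a long transcript, went from -1.13 to -0.20, so that it was no longer 2-fold lower. The cell cycle list, 11 of 12 genes higher as deposited, thus lay on the same side as the enzyme genes, and its part in their ratios was not tested.

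Of the known regulators, Atf4 had 114 FPKM in WT and 177 FPKM in KO, Myc had 59.3 and 169 FPKM, and Nfe2l2, which encodes NRF2, had 77.4 and 62.4 FPKM. Only Myc passed the cut-off. The 13 further genes known as ATF4 targets lay at a median log2 ratio of -0.47 over the 10 with a mean of 1 FPKM or more, and as deposited 3 of the 13 were 2-fold lower, a share near the 22.9% of all genes, and none 2-fold higher. The lower ones were the stress genes Ddit4 (10.8 and 2.91 FPKM) and Sesn2 (19.7 and 9.41 FPKM) and the amino acid transporter subunit Slc3a2 (368 and 163 FPKM). After the length and GC correction 4 (30.8%) were 2-fold lower, against 17.6% of all genes, with Sesn2 below the cut-off (log2 -0.59) and Ddit3 (-1.30) and Atf3 (-1.34) past it, and 1, the low Slc7a11 (1.11), was 2-fold higher. The median was then -0.56. Asns, asparagine synthetase, which was singled out after its values were seen, had 113 and 108 FPKM. As deposited, 3 of the 10 lay above 0 and 7 below.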

How the data were processed

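RNA-seq was performed on LSCs sorted from either genotype, 1 library each, grouped by the genotype label. cDNA was made with a SMART-Seq v4 low-input kit and libraries with Nextera XT, which keep no strand, and 75-base single reads were sequenced. The authors mapped them to mm10 with TopHat2 2.0.13 and Bowtie2 2.2.3 and deposited FPKM values from Cuffnorm (Cufflinks 2.2.1), as the methods and the submitters' processing notes state. FPKM is scaled to the mapped fragments, and the gene annotation and any further normalization between the libraries by Cuffnorm are not given in the sources used here.

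Ratios and intervals came from scipy 1.17.1 with pandas 2.3.3 (Python 3.11.15), and figures from matplotlib 3.10.9. A gene counted as past the cut-off at a ratio of 2 with 0.1 FPKM or more in both libraries. Medians used genes averaging 1 FPKM or more. Symbols were matched to GENCODE M21 (GRCm38), 20911 as written and 1901 through an older symbol. Estimated reads are FPKM times the length of the longest RefSeq-matched transcript less 210 (WT) or 208 (STAP-1 KO) bases, times the effective depth. Length and GC content were corrected in 20 bins each. Intervals of single genes are exact, and those of sums and proportions use a normal approximation on the log scale. The steps were tested on simulated data. Copies were searched with BLAST 2.17.0 in GENCODE transcripts, and promoters came from RefSeq (GRCm38.p6).

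The members and lists were chosen with earlier results of these data known. The genes named are the 9 members, Stap1, the regulators, and the list genes past the cut-off, at most 4 per list, the furthest at a pseudocount of 1 FPKM. The marker genes Kit and Ly6a, Asns, and the overlapping or copied genes, and those past the cut-off only after the length and GC correction, were named after their values were seen. Some listed genes are not reported here by name. Alternatives changed the pseudocount, the floor, the fold, the scaling, the length correction and the genes in a sum.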

Additional observations from a re-analysis of the deposited data

How the results depend on the processing

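No setting changed the direction of the median or of an arm sum. The number of genes at least 2-fold higher, 4 of 9, was 0 at a 4-fold cut-off, and between 4 and 6 under the other floors, folds, scalings and the length and GC correction. Scaling to the total FPKM without features under 200 bases shifted the log2 scale by 0.17 (less for low genes such as Aldh1l2, through the added 0.1 FPKM), and the median of all genes to 0.12. Under it the median of the members was 1.23, and the KO to WT ratio was 3.05 for serine synthesis, 1.61 for the cytosolic arm, 1.86 for the mitochondrial arm and 2.13 for all 9 genes. Upper quartile scaling gave 1.97 for all 9 genes. The length and GC correction gave 2.40 for serine synthesis, 1.57 for the mitochondrial arm and 1.78 for all 9 genes, and a log2 change of 0.073 (0.40 as deposited) for Mthfd2 plus Mthfd1l over Mthfd1. It turned the median of the transport list from -0.0036 to 0.34, lowered the 2-fold higher cell cycle genes from 6 to 2, and moved single calls in some other lists. Without its highest gene the ratio was 2.96 for serine synthesis, 3.40 for the cytosolic arm and 1.36 for the mitochondrial arm. Leaving out in turn each of the 8 members in the median (Aldh1l2 is not in it), an alternative added after the data were seen, kept the median log2 ratio between 0.93 and 1.18. No paired analysis was possible because each genotype has 1 library, and for the same reason no library could be left out. Depth limits the statements on Aldh1l2, and mice, sorts, preparations and genotype are confounded and cannot be told apart.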
